A study of Rattus norvegicus with 2 samples.

Results

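The IGF and insulin system was followed in rat dorsal root ganglia (DRGs) through 10 genes, which code for the ligands Igf1 and Igf2, the receptors Igf1r and Insr, the adaptor Irs2 and the binding proteins Igfbp2, Igfbp3, Igfbp4, Igfbp5 and Igfbp7. The genes were taken by symbol from the 30017 symbols of the deposited matrices, and all 10 were found with 1 identifier each. The diabetic peripheral neuropathy (DPN) library came from male Sprague-Dawley rats given a single intraperitoneal dose of streptozotocin at 65 mg/kg, a toxin of the insulin-producing beta cells, and the control library from rats given citrate buffer. The rats were 8 weeks old on purchase and were sampled 8 weeks after the injection. Each library was 1 pool of the bilateral L3 to L6 DRGs of 5 rats, dissociated with enzymes and run as 3′ single-cell RNA-seq. With 1 library per condition there is no replicate check and no test between conditions. All intervals below are 95% intervals that cover counting error only.

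IGF-1 and IGF-2 are secreted growth factors that act on the IGF-1 receptor, a tyrosine kinase closely related to the insulin receptor, and both receptors pass their signal through insulin receptor substrates to PI3 kinase and AKT, which keeps FOXO transcription factors out of the nucleus. Secreted IGF binding proteins hold the ligands, prolong their life and set how much of them can reach a receptor. In sensory ganglia, insulin and the IGFs are known as trophic factors for neurons and their glia, and streptozotocin diabetes is a model in which insulin itself is deficient.

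The transcripts were counted in 6 groups of cells gated on marker genes, among cells with at least 1000 UMIs (unique molecular identifiers, each standing for 1 captured transcript) and under 20% mitochondrial UMIs. Per 10000 UMIs, satellite glia held at least 12 of Fabp7 and Tyrp1, myelinating Schwann cells at least 5 of Prx, Mag and Cldn19, endothelium at least 10 of Cldn5, Flt1 and Cdh5, smooth muscle at least 2 of Myh11, fibroblasts at least 5 of Lum, and macrophages at least 10 of C1qa, C1qb and C1qc. The satellite glia gate held 3012 cells in DPN and 4135 in control, and the endothelium gate 1213 in DPN and 802 in control. The myelinating Schwann gate held 481 cells in DPN and 347 in control, the smooth muscle gate 584 in DPN and 385 in control, the fibroblast gate 328 in DPN and 211 in control, and the macrophage gate 242 in DPN and 173 in control. Of 32 further marker genes that were not used for gating, 30 had their highest level in their own gate in both libraries. The exceptions were Glul, which was highest in endothelium, and Cadm2, which was highest in myelinating Schwann cells, both markers listed for satellite glia.

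Levels are given as CPM, the UMIs of a gene per 1000000 UMIs of all cells of the gate. They come from transcript ends, without correction for gene length, and are compared between cells and conditions, not between genes. A gene was called higher or lower in DPN when its CPM ratio was at least 1.5 or at most 0.667 with an interval that excluded 1, among genes with at least 100 UMIs in the gate over both libraries. CPM alone cannot tell fewer cells with a transcript from less transcript per cell, so the share of cells with a UMI is given beside the main results.

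The libraries differed in ways that touch every ratio. The DPN library held 13168 barcodes with a median of 5919 UMIs and the control library 11011 barcodes with a median of 8993 UMIs, and 38 barcodes occurred in both. In each of the 6 gates the median depth was lower in DPN, at 11145 UMIs per satellite glial cell in DPN and 13783 in control. Genes known to be induced early during dissociation summed to 14214 CPM in DPN and 8514 CPM in control satellite glia, and were higher in DPN in all 6 gates. The 6 neuron marker genes were higher in DPN in all 6 gates as well, at 237 CPM in DPN and 145 CPM in control in satellite glia and 211 CPM in DPN and 92.6 CPM in control in endothelium. More genes were called higher than lower in every gate, and this share followed the length of the gene: in satellite glia, 48.4% of the genes that span at least 100 kb in the genome were called higher, against 12.2% of those under 20 kb. The part of depth, dissociation, neuronal RNA and gene length in the results below was not tested.

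The promoters of 3 members on which the results turn are shown as reference sequence, because the FOXO factors downstream of both receptors read the letters TGTTTAC on either strand (GTAAACA on the other). They run from 250 bases before to 50 bases after the annotated start (RefSeq, GRCr8), and capitals mark a match. Sequences were found by symbol for 9 of the 10 members, all but Irs2.
Insr, chr12:6128754-6129053, minus strand: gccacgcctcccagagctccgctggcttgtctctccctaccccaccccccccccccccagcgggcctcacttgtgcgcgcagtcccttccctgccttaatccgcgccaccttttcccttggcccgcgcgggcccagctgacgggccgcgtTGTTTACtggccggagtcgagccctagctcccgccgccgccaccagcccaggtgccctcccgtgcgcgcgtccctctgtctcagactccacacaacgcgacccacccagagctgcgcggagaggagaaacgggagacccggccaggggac
Igf1, chr7:24172282-24172581, plus strand: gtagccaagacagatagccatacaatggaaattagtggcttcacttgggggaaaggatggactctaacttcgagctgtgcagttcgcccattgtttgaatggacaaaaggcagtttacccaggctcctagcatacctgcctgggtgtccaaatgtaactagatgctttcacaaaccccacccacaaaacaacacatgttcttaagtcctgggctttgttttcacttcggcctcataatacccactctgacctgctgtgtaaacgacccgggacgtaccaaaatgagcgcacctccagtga
Igfbp2, chr9:81864561-81864860, plus strand: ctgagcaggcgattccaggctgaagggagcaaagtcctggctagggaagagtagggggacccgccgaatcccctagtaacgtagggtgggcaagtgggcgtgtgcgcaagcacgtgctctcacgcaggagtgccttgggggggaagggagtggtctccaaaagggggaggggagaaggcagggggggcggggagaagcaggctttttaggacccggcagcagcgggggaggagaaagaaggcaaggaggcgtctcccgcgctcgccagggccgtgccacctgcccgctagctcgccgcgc
Insr, the receptor gene, had 1 match, beginning 100 bases before the start used, and was the only one of the 9 members with a match. The same letters occur in 3.78% of all 33469 promoters of this length, so that a match is a description of the sequence and not of a bound site. The Insr promoter was rich in G and C at 71.3%, as was that of Igfbp2 at 66.7%, while that of Igf1 held 48.3% and the median promoter 51.7%.

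Over the 6 gates, 43 of the 60 pairs of member and gate reached 100 UMIs. Of these, 5 were called higher in DPN, 10 were called lower and 28 were not called. The calls divided by role: the 5 higher calls were all of receptors or the adaptor, and the 10 lower calls were all of Igf1 or of binding proteins. In satellite glia 2 of 9 members were called higher and 3 lower, beside 25.7% and 2.28% of all genes. In myelinating Schwann cells the counts were 0 and 2 of 6, beside 18.5% and 5.61% of all genes, and in endothelium 2 and 2 of 10, beside 18.7% and 4.58%. In smooth muscle none of 7 members was called, where 18.4% of all genes were called higher and 4.01% lower. In fibroblasts 1 of 6 was called higher and 2 lower, beside 26.1% and 4.1%, and in macrophages 0 higher and 1 lower of 5, beside 18.6% and 4.63%. The higher calls of members were near or below the share of all genes in every gate, and the lower calls stood above the share of all genes in all gates but smooth muscle. Among these lower calls, Igfbp2 in myelinating Schwann cells and endothelium lay no higher than RNA freed from satellite glia would give, as gauged below. Igfbp4 in myelinating Schwann cells lay above that gauge, and the part of free RNA in these calls was not tested. In satellite glia the median log2 ratio was -0.39 over the 9 members and 0.19 over all 10753 genes.

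Cells outside the 6 gates divided in the same way. Of 10 members in all cells of no gate, 2 were called higher (Igf1r and Insr) and 2 lower (Igf1 and Igfbp3), beside 22.3% and 2.11% of all genes. Over all kept cells, gated or not, the same receptors were called higher and Igf1, Igfbp2 and Igfbp4 lower, beside 31.2% and 2.4% of all genes, but these totals also carry the different numbers of cells of each kind.

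**Figure D1:**
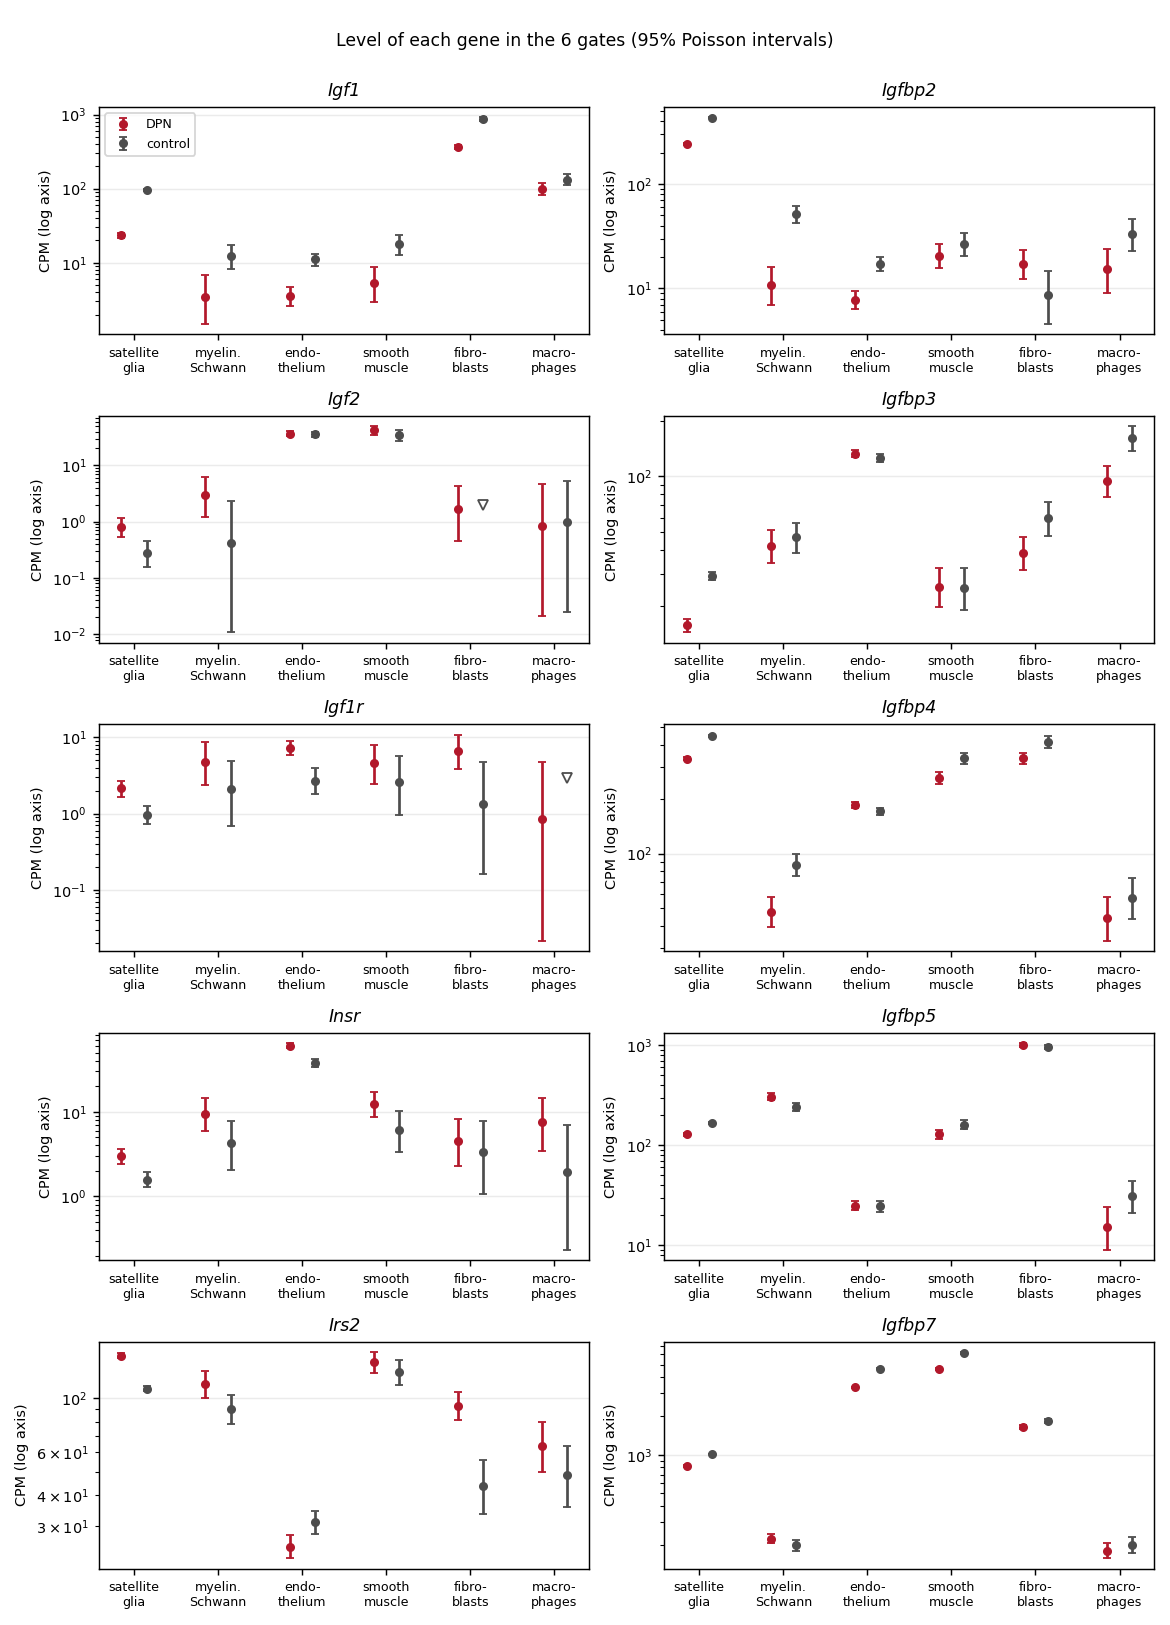
Level of each of the 10 genes in the 6 gates, in CPM on a log axis, with DPN (red) to the left of control (grey) and 95% Poisson intervals. Open triangles mark the level of 3 UMIs where none was counted. Igf1 lay lower in DPN than in control in every gate, while Igf1r lay higher in DPN in the 5 gates where both libraries held UMIs of it.

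**Figure D2:**
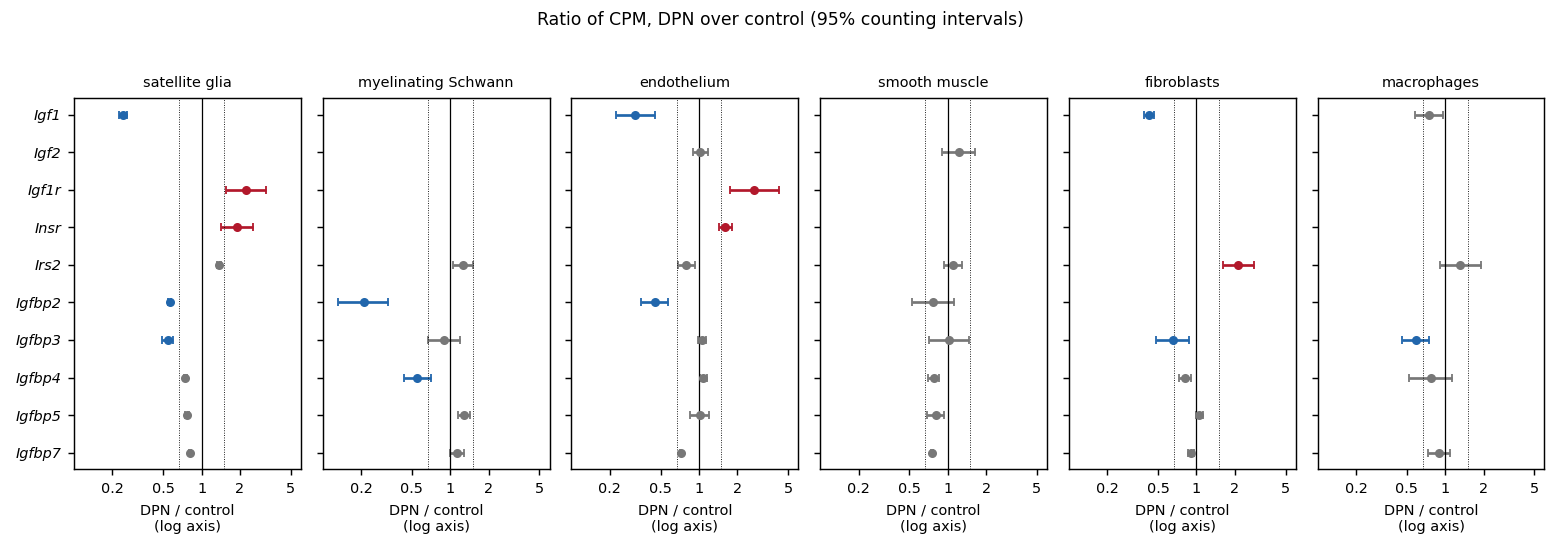
Ratio of CPM, DPN over control, on a log axis with 95% counting intervals, for members with at least 100 UMIs in a gate. Red points were called higher, blue points lower and grey points were not called, and dotted lines mark ratios of 1.5 and 0.667. In satellite glia, endothelium and fibroblasts the leftmost point is that of Igf1, at ratios of 0.243, 0.317 and 0.424.

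The Igf1 transcript, which codes for the ligand of the IGF-1 receptor, had its highest level in fibroblasts and fell in them and in satellite glia. Fibroblasts held 368 CPM in DPN (344 to 393) and 869 CPM in control (823 to 917), a ratio of 0.424 (0.389 to 0.462). Satellite glia held 23.4 CPM in DPN (788 UMIs) and 96 CPM in control (5581 UMIs), a ratio of 0.243 (0.225 to 0.262). These calls kept their direction and their side of the threshold in all 13 alternative settings, with ratios of 0.396 to 0.536 in fibroblasts and 0.219 to 0.638 in satellite glia. In satellite glia, 18.2% of DPN cells and 59.0% of control cells held at least 1 UMI of Igf1, and when every cell was thinned to 1000 UMIs the shares were 2.56% in DPN and 8.63% in control. In fibroblasts the shares were 76.2% of DPN and 88.2% of control cells, and 27.7% of DPN and 50.7% of control cells after thinning. The 6 macrophage marker genes, of cells that also hold Igf1, summed to 9.97 CPM in DPN and 41.0 CPM in control in the fibroblast gate, beside 4771 CPM in DPN and 5458 CPM in control in macrophages, and their part in the fibroblast ratio was not tested.

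Macrophages came next after fibroblasts in both libraries, with 99.8 CPM in DPN and 133 CPM in control, and were not called at a ratio of 0.753 (0.583 to 0.970). This depended on depth, and in cells of 3000 to 10000 UMIs macrophages were called lower. The ratio was 0.601 (0.441 to 0.817) in macrophages of 3000 to 6000 UMIs and 0.471 (0.232 to 0.912) in those of 6000 to 12000 UMIs. No other depth class held enough macrophages to be counted. The order of fibroblasts, macrophages and satellite glia was the same in both libraries, and no neighbouring intervals overlapped. The levels of smooth muscle, endothelium and myelinating Schwann cells, between 3.46 and 5.29 CPM in DPN and between 11.1 and 17.7 CPM in control, could not be ordered by their intervals. Endothelium was called lower at 3.51 CPM in DPN and 11.1 CPM in control, a ratio of 0.317, and the call held in 9 of 13 alternatives. How much free RNA could add there was gauged from Fabp7 and Tyrp1, the gating genes of satellite glia. If these reached other cells as free RNA only and Igf1 travelled in the same proportion, endothelium would hold 0.976 CPM of Igf1 in DPN and 4.50 CPM in control. The measured level was 3.60 times this value in DPN and 2.46 times in control, while in fibroblasts it was 254 times in DPN and 143 times in control. In macrophages the multiples were 41.9 in DPN and 8.69 in control. Free RNA from fibroblasts was not included, and its part was not tested.

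Cells that passed none of the 6 gates gave lower Igf1 in DPN as well. Among them, cells with at least 5 UMIs of the pericyte genes Rgs5, Kcnj8 and Abcc9 per 10000 held 34.2 CPM in DPN and 93.6 CPM in control, a ratio of 0.365 (0.254 to 0.518), beside 6.63% of all genes called lower in these cells. The Schwann cell genes Fxyd1 and Sostdc1 marked cells with 8.20 CPM in DPN and 26.2 CPM in control, a ratio of 0.313, beside 2.19% of all genes. These levels were 2.29 times the scaled free RNA of satellite glia in DPN and 1.76 times in control, and in pericyte-gene cells 24.7 times in DPN and 18.1 times in control. The part of free RNA in these ratios was not tested.

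The cells that supplied the Igf1 transcript differed between the libraries. Satellite glia that passed no other gate held 35.0% of its UMIs in DPN and 69.2% in control, and fibroblasts 39.4% in DPN and 16.0% in control. These shares depend on how many cells of each gate were recovered, and satellite glia made up fewer and fibroblasts more of the cells in DPN. The fibroblast gate was divided by Igfbp6, a binding protein that prefers IGF-2, in a split chosen after its values were seen, on a gene that itself differed between the libraries. Fibroblasts with at least 10 UMIs of Igfbp6 per 10000 were 33.8% of the gate in DPN (111 cells) and 16.1% in control (34 cells). They held 166 CPM of Igf1 in DPN and 503 CPM in control, a ratio of 0.329, and those under 10 held 510 CPM in DPN and 945 CPM in control, a ratio of 0.540 (0.491 to 0.592). Igf1 was thus lower in DPN on both sides of the split, and lower on the Igfbp6-rich side in both libraries.

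**Figure D3:**
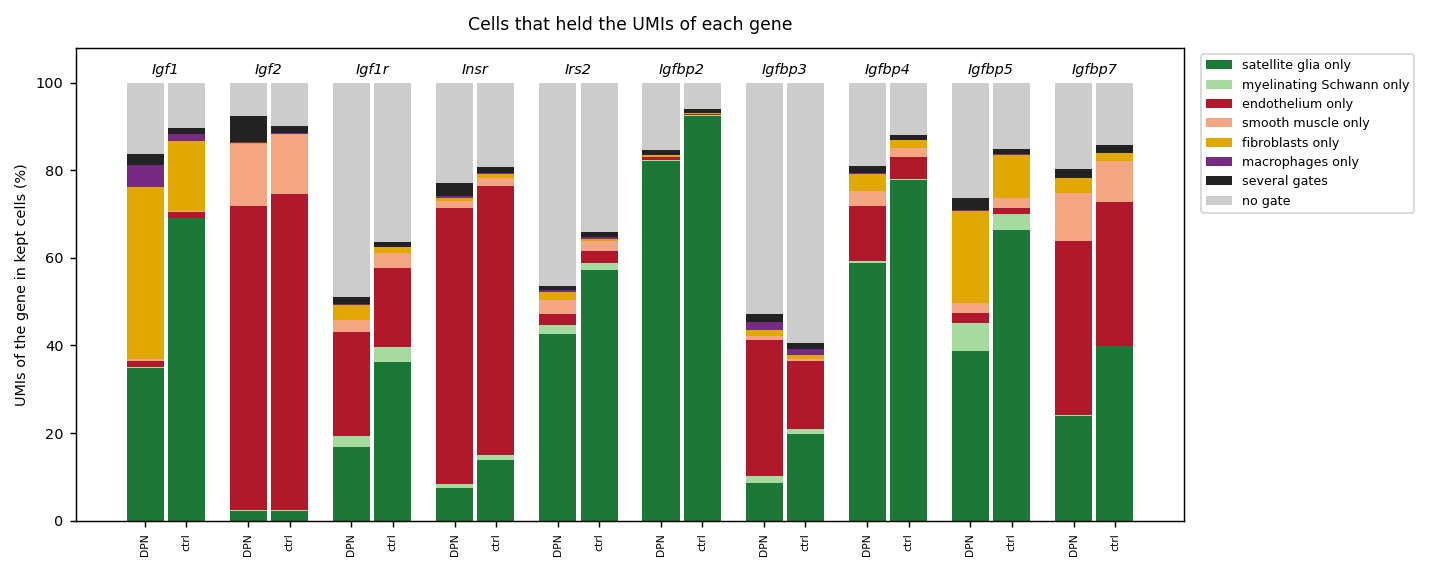
Share of the UMIs of each gene, in percent, by the gate of the cell that held them, with DPN to the left of control (ctrl) for each gene. Satellite glia (dark green) held 35.0% of Igf1 UMIs in DPN and 69.2% in control, and endothelium (red) held most UMIs of Igf2 and Insr in both libraries.

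The Igf2 transcript, which codes for the other IGF ligand, was found mainly in vessel cells and did not differ over whole gates by the call rule. Endothelium held 36.9 CPM in DPN and 36.1 CPM in control, a ratio of 1.02 (0.894 to 1.17), and smooth muscle 42.0 CPM in DPN and 34.5 CPM in control, a ratio of 1.22 (0.909 to 1.64). These intervals overlapped within each library, so endothelium and smooth muscle could not be ordered. The other 4 gates held at most 27 UMIs in DPN and 16 in control, and fibroblasts held 4 UMIs in DPN and 0 in control, which allows up to 1.98 CPM by the limit of 3 UMIs, where the 2-sided interval reaches 2.44 CPM. Endothelium that passed no other gate supplied 69.5% of the UMIs in DPN and 72.2% in control.

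Within endothelium, Igf2 was scarce in the cells with venous and fenestrated-vessel genes. Cells with at least 5 UMIs of Plvap and Selp per 10000, a split chosen after values were seen, held 5.24 CPM in DPN and 6.77 CPM in control, while the remaining endothelium held 49.2 CPM in DPN and 54.3 CPM in control. The Plvap and Selp cells were 27.5% of endothelium in DPN and 40.4% in control. Ratios within the remainder were 0.906 (0.788 to 1.04). The even ratio of the whole endothelial gate covered opposite directions by depth. In endothelial cells of 3000 to 10000 UMIs the Igf2 ratio was 3.25. By depth class it was 2.28 (1.28 to 4.27) at 3000 to 6000 UMIs and 1.69 (1.26 to 2.29) at 6000 to 12000. In deeper cells it was 0.761 (0.643 to 0.900), and the cause was not tested.

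Transcripts of Igf1r, the receptor for both IGFs, were few and were called higher where they could be counted. Endothelium held 99 UMIs (7.24 CPM) in DPN and 28 UMIs (2.69 CPM) in control, a ratio of 2.69 (1.75 to 4.25). Satellite glia held 72 UMIs (2.13 CPM) in DPN and 56 UMIs (0.963 CPM) in control, a ratio of 2.22 (1.54 to 3.20). The call held in 9 of 13 alternatives in endothelium and in 7 of 12 in satellite glia. The other gates held at most 16 UMIs in DPN and 6 in control, too few for a call, with ratios above 1 in all but macrophages, which held 1 UMI in DPN and 0 in control. Neighbouring gates overlapped in both libraries, but endothelium stood above satellite glia without overlap, at 5.88 to 8.81 CPM and 1.67 to 2.69 CPM in DPN and at 1.79 to 3.89 CPM and 0.728 to 1.25 CPM in control.

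Sensory neurons, the cells in which IGF and insulin signalling is most often studied in DRGs, lay outside the 6 gates. Cells of none of them with at least 10 UMIs of the neurofilament genes Nefl and Nefm and of Avil per 10000 numbered 352 in DPN and 158 in control, and their median depth was 5219 UMIs in DPN and 103694 in control. They held 87 UMIs (4.53 CPM) of Igf1r in DPN and 24 UMIs (1.68 CPM) in control, a ratio of 2.70 (1.70 to 4.44), beside 20.6% of all genes called higher. Of 8 members counted there, 2 were called higher, both receptors, and 3 lower, namely Igfbp2, Igfbp3 and Igfbp4, beside 2.09% of all genes called lower. Their Igfbp4 was 4.43 CPM in DPN and 7.06 CPM in control, of which the free RNA scale of satellite glia would give 2.24 CPM in DPN and 4.77 CPM in control, and the part of free RNA was not tested. Their Insr was 8.33 CPM in DPN and 5.17 CPM in control, a ratio of 1.61 (1.21 to 2.15). The difference in depth means that the cells taken as neuronal were not alike in DPN and control, and its part in these ratios was not tested.

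Insr, the insulin receptor gene whose promoter carries the match shown above, was the receptor with a clear cell of origin. Endothelium held 60.3 CPM in DPN (824 UMIs, 56.2 to 64.5) and 37.5 CPM in control (390 UMIs, 33.9 to 41.4), a ratio of 1.61 (1.42 to 1.82). A UMI of Insr was found in 39.6% of DPN and 32.4% of control endothelial cells, and in 5.03% of DPN and 3.37% of control cells after thinning. Endothelium stood apart from the next gate, smooth muscle at 12.4 CPM in DPN and 6.04 CPM in control, and the remaining gates overlapped their neighbours in both libraries. In satellite glia the 101 UMIs of DPN and 92 of control gave 2.99 CPM in DPN and 1.58 CPM in control, a ratio of 1.89 (1.41 to 2.54).

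The endothelial call of Insr held in 9 of 13 alternatives, whose ratios ran from 1.13 to 1.66, and the satellite glial call in 7 of 13. Both sides of the Plvap and Selp split had more Insr in DPN, with 58.1 CPM in DPN and 41.6 CPM in control above the limit, a ratio of 1.40, and 61.1 CPM in DPN and 35.0 CPM in control below it, a ratio of 1.75. Both receptor genes are long, with Igf1r spanning 289 kb and Insr 138 kb of the RefSeq assembly. Among all endothelial genes of at least 100 kb, 39.1% were called higher, against 6.90% of those under 20 kb, and the higher calls of the receptors fall in that long class. Lower calls were more frequent among short genes, with 6.66% of endothelial genes under 20 kb and 1.86% of those of at least 100 kb, and 3.17% and 0.858% of the same classes in satellite glia. The binding proteins called lower span between 7.74 and 27.4 kb, and Igf1 spans 79.8 kb.

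Irs2, the adaptor that couples both receptors to PI3 kinase, rose in fibroblasts. They held 92.7 CPM in DPN (80.9 to 106) and 43.6 CPM in control (33.7 to 55.5), a ratio of 2.12 (1.61 to 2.84). A UMI was found in 38.7% of DPN and 24.2% of control fibroblasts, but in 6.71% of DPN and 6.16% of control cells once all cells were thinned to 1000 UMIs, where the ratio was 1.14. The call held in 11 of 13 alternatives. In the fibroblasts with little Igfbp6 the ratio was 1.70 (82.6 CPM in DPN and 48.7 CPM in control).

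Satellite glia held 149 CPM of Irs2 in DPN and 109 CPM in control, a ratio of 1.37 (1.32 to 1.42) that did not reach the limit of 1.5. Smooth muscle held 139 CPM in DPN and 127 CPM in control, and myelinating Schwann cells 113 CPM in DPN and 90.1 CPM in control. Endothelium, the gate with the most Insr, held the least Irs2 in both libraries, at 24.7 CPM in DPN and 31.1 CPM in control (ratio 0.795, 0.681 to 0.929), though its interval in control overlapped that of fibroblasts. Outside the 6 gates, cells with the genes Nes and Fgf2 were called higher at 174 CPM in DPN and 116 CPM in control, a ratio of 1.5 (1.33 to 1.70), beside 18.9% of all genes, and the 1 lower call of 6 members in them was that of Igfbp2 (0.654), beside 2.72%. Their Igfbp2 level was 0.531 times the scaled free RNA of satellite glia in DPN and 0.456 times in control. No expression of Igfbp2 by these cells is read from it.

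Igfbp2, a binding protein secreted into the extracellular fluid, was a satellite glial transcript in these ganglia and fell in DPN. Satellite glia held 242 CPM in DPN (8174 UMIs) and 430 CPM in control (25021 UMIs), a ratio of 0.563 (0.549 to 0.577). They supplied 82.2% of all its UMIs in DPN and 92.5% in control. A UMI was found in 59.7% of DPN and 75% of control satellite glia, and in 17.0% of DPN and 26.4% of control cells after thinning. The next gates were lower by 11.8 times in DPN (smooth muscle) and 8.41 times in control (myelinating Schwann cells).

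The difference in Igfbp2 varied with the depth of the cells. Satellite glia of at least 12000 UMIs held 323 CPM in DPN and 493 CPM in control, a ratio of 0.654 (0.635 to 0.673). Those of 6000 to 12000 UMIs held 157 CPM in DPN and 175 CPM in control, a ratio of 0.895 (0.843 to 0.952). In the 204 DPN and 91 control cells of 3000 to 6000 UMIs the levels were 82.7 CPM in DPN and 194 CPM in control, a ratio of 0.425 (0.310 to 0.584), and the 67 DPN and 58 control cells below 3000 UMIs gave a ratio of 0.821 (0.398 to 1.69). The ratio thus did not follow depth in 1 direction. The class of at least 12000 UMIs held more Igfbp2 than the other 3 in both libraries, and cells of at least 12000 UMIs numbered 1194 in DPN and 2889 in control. Over cells of 3000 to 10000 UMIs the ratio was 0.791 and the call was lost, the only alternative of 13 in which it was. Igf1 kept a larger difference in the same classes, with 24.0 CPM in DPN and 103 CPM in control in the deepest cells (ratio 0.233), and 23.5 CPM in DPN and 69.3 CPM in control in those of 6000 to 12000 UMIs (ratio 0.340). These depth classes were chosen with earlier results known.

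**Figure D4:**
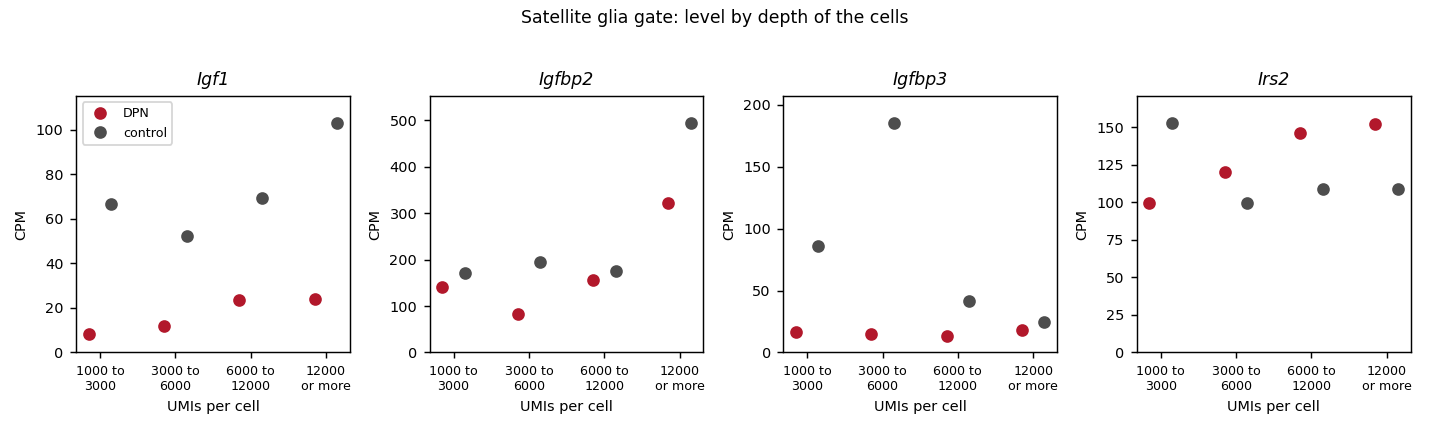
CPM of Igf1, Igfbp2, Igfbp3 and Irs2 in satellite glia by UMIs per cell, with DPN (red) to the left of control (grey). Igf1 lies lower in DPN in every class, whereas Igfbp2 lies at 157 CPM in DPN and 175 CPM in control in cells of 6000 to 12000 UMIs.

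Outside satellite glia, Igfbp2 was called lower in myelinating Schwann cells, with 10.8 CPM in DPN and 51.2 CPM in control (ratio 0.212), and in endothelium, with 7.75 CPM in DPN and 17.2 CPM in control (ratio 0.450). These levels were no higher than free RNA of satellite glia would give on the scale of Fabp7 and Tyrp1. In myelinating Schwann cells the measured value was 0.625 times the scaled one in DPN and 0.846 times in control, and in endothelium 0.766 times in DPN and 0.854 times in control. Fabp7 and Tyrp1 themselves summed to 181 CPM in DPN and 407 CPM in control in the myelinating Schwann gate. Neither call held in cells that passed exactly 1 gate. Myelinating Schwann cells there held 17 UMIs in DPN and 39 in control, too few for a call whatever the ratio. Endothelium held 69 in DPN and 79 in control and did not meet the limits of the call. No expression of Igfbp2 by these cells is read from the levels.

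Igf1 and Igfbp2 fell in the same gate, and it was asked whether single satellite glia that held the ligand differed in the binding protein. After thinning, 77 DPN and 357 control cells held Igf1. Their mean Igfbp2 was 0.221 UMIs per cell in DPN and 0.454 in control, beside 0.217 in DPN and 0.379 in control in the cells without it. Of control satellite glia, 59.0% held Igf1 at full depth and 8.63% after thinning, so many cells counted as without Igf1 had held it. The split therefore cannot show whether Igfbp2 differs between cells with and without Igf1.

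Igfbp3, the main carrier of IGFs in blood, had its highest levels of the 6 gates in endothelium and macrophages. Endothelium held 133 CPM in DPN and 126 CPM in control, a ratio of 1.05 (0.981 to 1.13) that was not called. Macrophages held 94.7 CPM in DPN and 161 CPM in control, a ratio of 0.590 (0.460 to 0.754), so that macrophages stood below endothelium in DPN and above it in control, with intervals that did not overlap in either. The macrophage call held in 10 of 13 alternatives. Satellite glia held 15.8 CPM in DPN and 29.2 CPM in control (ratio 0.540, 0.489 to 0.596), and fibroblasts 38.6 CPM in DPN and 59.5 CPM in control (ratio 0.650, 0.481 to 0.878). The fibroblast ratio was 1.09 after thinning, with few UMIs left. A UMI was found in 11.6% of DPN and 8.06% of control fibroblasts. The fibroblast ratio was 0.176 (0.0920 to 0.319) at 3000 to 6000 UMIs, where 67 control cells held 50 UMIs of Igfbp3. It was 1.40 (0.884 to 2.26) at 6000 to 12000 UMIs and 0.924 (0.413 to 2.21) in deeper cells. The lower direction in fibroblasts was thus not seen at every depth. Fibroblasts with little Igfbp6 had a ratio of 0.580, and the others held 36 UMIs in DPN and 3 in control.

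The satellite glial difference in Igfbp3 was larger in cells under 12000 UMIs than in deeper ones. In the 1547 DPN and 1097 control cells of 6000 to 12000 UMIs the ratio was 0.313 (0.263 to 0.372). The part of free RNA in these levels was not tested. The ratio was 0.0798 in cells of 3000 to 6000 UMIs, where 204 DPN cells held 14.8 CPM and 91 control cells 185 CPM, and 0.733 (0.646 to 0.829) in cells of at least 12000 UMIs. Most Igfbp3 lay outside the 6 gates, with 52.9% of its UMIs in DPN and 59.5% in control. There it was highest in cells with Nes and Fgf2, at 249 CPM in DPN and 317 CPM in control, a ratio of 0.787 that was not called. Cells with Fxyd1 and Sostdc1 were called lower, at 94.2 CPM in DPN and 190 CPM in control (ratio 0.495, 0.464 to 0.529). Cells with the glial genes Sox2 and Dhh, which overlap with both, held 115 CPM in DPN and 199 CPM in control (ratio 0.577), beside 2.47% of all genes called lower. In endothelium the sides of the Plvap and Selp split went apart, at 178 CPM in DPN and 187 CPM in control above the limit and 115 CPM in DPN and 87.6 CPM in control below it, a ratio of 1.31 (1.19 to 1.46).

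Igfbp4, a binding protein that mostly restrains IGF action, was shared by satellite glia and fibroblasts. Satellite glia held 334 CPM in DPN and 448 CPM in control, a ratio of 0.745 (0.729 to 0.762), and fibroblasts 336 CPM in DPN and 414 CPM in control, a ratio of 0.812 (0.730 to 0.902). The intervals of these 2 gates overlapped in each library, and neither was called. The call in myelinating Schwann cells, with 47.6 CPM in DPN and 86.3 CPM in control, had a ratio of 0.552 (0.434 to 0.700) and held in 8 of 13 alternatives. On the free RNA scale of Fabp7 and Tyrp1, satellite glia would account for 23.9 CPM of this in DPN and 63.0 CPM in control. The measured level was 1.99 times the scaled one in DPN and 1.37 times in control, and the part of free RNA in this call was not tested. The ratio in myelinating Schwann cells varied with depth. It was 1.08 (0.335 to 4.01) below 3000 UMIs and 1.60 (0.808 to 3.34) at 3000 to 6000 UMIs. It was 0.490 (0.288 to 0.816) at 6000 to 12000 UMIs and 0.745 (0.521 to 1.05) in deeper cells. Smooth muscle held 261 CPM in DPN and 336 CPM in control and endothelium 185 CPM in DPN and 171 CPM in control, and macrophages held the least in both, with an interval that overlapped that of myelinating Schwann cells in DPN.

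Igfbp5, a binding protein that also attaches to extracellular matrix, was highest in fibroblasts and was not called in any of the 6 gates. Fibroblasts held 1007 CPM in DPN and 956 CPM in control (ratio 1.05, 0.987 to 1.13), followed by myelinating Schwann cells with 307 CPM in DPN and 241 CPM in control (ratio 1.27). Satellite glia held 129 CPM in DPN and 168 CPM in control (ratio 0.764). The fibroblast level hid unequal cells, since only 31.4% of DPN and 20.4% of control fibroblasts held a UMI. Fibroblasts with Igfbp6 held 2111 CPM in DPN and 4452 CPM in control, a ratio of 0.474 (0.441 to 0.510), and the others 235 CPM in DPN and 229 CPM in control, a ratio of 1.02. Igfbp6 itself was higher over the gate in DPN, so the limit does not pick the same kind of cells in both libraries, and these ratios describe the cells on either side of it only.

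In endothelium Igfbp5 was even over the gate and uneven within it. The gate held 24.9 CPM in DPN and 24.6 CPM in control. Cells with Plvap and Selp held 50 CPM in DPN and 22.6 CPM in control, a ratio of 2.21 (1.71 to 2.88), and the others 15.1 CPM in DPN and 25.9 CPM in control, a ratio of 0.583 (0.465 to 0.732). The intervals of these ratios lie on opposite sides of 1, but they cover counting error only. A UMI was found in 9.07% of DPN and 13.6% of control endothelial cells. Cells of 6000 to 12000 UMIs held 56.5 CPM in DPN and 28.2 CPM in control. Deeper cells held 18.3 CPM in DPN and 23.6 CPM in control. The gate ratio ran from 0.631 with gate thresholds doubled to 1.53 in cells of 3000 to 10000 UMIs. Whether the contrast between the sides depends on few cells or on depth was not tested.

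**Figure D5:**
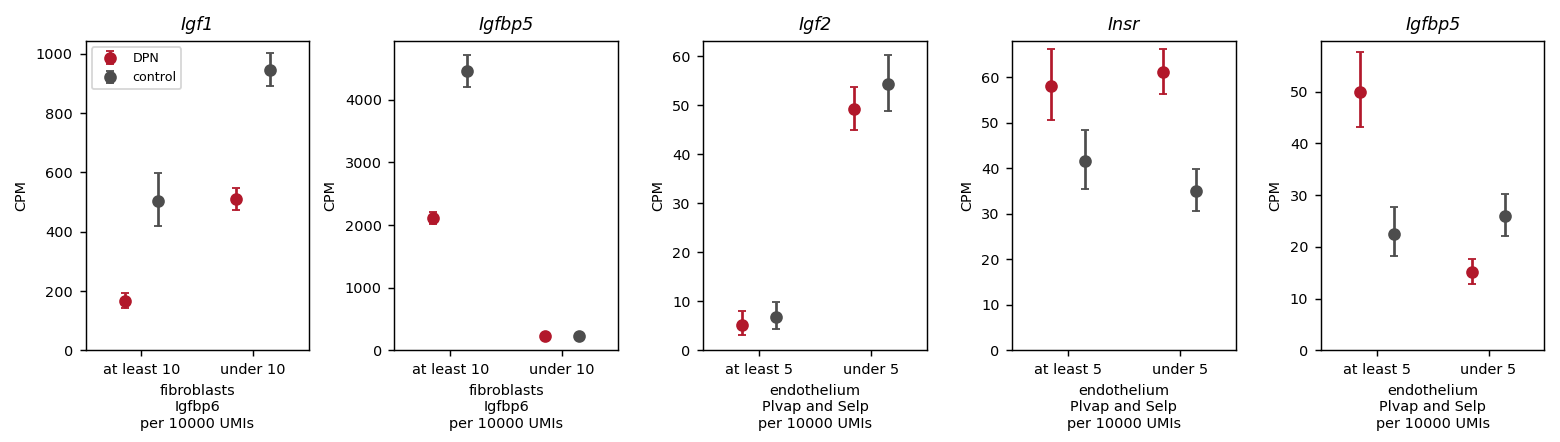
CPM with 95% Poisson intervals on either side of the Igfbp6 limit in fibroblasts (Igf1, Igfbp5) and of the Plvap and Selp limit in endothelium (Igf2, Insr, Igfbp5), with DPN (red) to the left of control (grey). Igfbp5 in endothelium was 50 CPM in DPN and 22.6 CPM in control above the limit and 15.1 CPM in DPN and 25.9 CPM in control below it.

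Igfbp7, a related secreted protein that binds IGFs weakly and lies in vessel walls, had its highest level in smooth muscle and endothelium. Smooth muscle held 4665 CPM in DPN and 6187 CPM in control, a ratio of 0.754 (0.736 to 0.772), and endothelium 3332 CPM in DPN and 4641 CPM in control, a ratio of 0.718 (0.709 to 0.727). Neither reached the limit of 0.667, although the intervals excluded 1. Its order from smooth muscle through endothelium and fibroblasts to satellite glia was the same in both libraries, with no overlap of neighbours. Pericyte-gene cells held 5463 CPM in DPN and 7246 CPM in control, the same ratio of 0.754. In endothelium the ratio was 0.665 as a mean over cells, just past the limit.

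The wider pathway was read from 50 further genes of IGF and insulin signalling, of which 47 were in the matrices. In satellite glia 16 of 37 with enough UMIs were called higher and 0 lower, beside 25.7% and 2.28% of all genes, and the median log2 ratio was 0.50 beside 0.19 over all genes. Among the highest were Rictor, a subunit of the mTORC2 kinase complex that phosphorylates AKT (5.45 CPM in DPN and 1.63 CPM in control, ratio 3.34), and Tsc1, a brake on mTORC1 (59 UMIs in DPN and 41 in control, ratio 2.48). Irs1, the other main adaptor, held 4.59 CPM in DPN and 2.24 CPM in control, a ratio of 2.05, and Foxo3 5.84 CPM in DPN and 2.37 CPM in control, a ratio of 2.46. Most of these are rare transcripts, and of all satellite glial genes with 100 to 300 UMIs 47.4% were called higher.

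In endothelium 6 of 30 pathway genes were called higher, near the 18.7% of all genes, and 0 lower, among them Rictor (317 UMIs in DPN and 52 UMIs in control, ratio 4.63) and Pik3r3, a regulatory subunit of PI3 kinase (ratio 1.90). In smooth muscle 4 of 17 were called higher, beside 18.4% of all genes, led by the exchange factor gene Sos1 (ratio 2.02), Pdpk1, the kinase that activates AKT (1.74), and the receptor-binding adaptor Grb10 (1.71). In myelinating Schwann cells 2 of 16 were called higher, beside 18.5% of all genes, namely Grb2 and Sos1, which link receptors to RAS (both 1.54), and Igfbp6 was called lower, with 67.5 CPM in DPN and 105 CPM in control (0.644). In fibroblasts 4 of 16 were called higher and 1 lower, near the 26.1% and 4.1% of all genes. Igfbp6 led there with 2145 CPM in DPN and 641 CPM in control, a ratio of 3.35 (3.12 to 3.59), followed by Sos1 (2.58) and Grb10 (2.36), and Pik3r2 was called lower (0.663). Macrophages had 1 of 9 called higher, beside 18.6% of all genes, Pik3r1, the main regulatory subunit of PI3 kinase (1.76).

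Genes known to be induced by FOXO factors when insulin or IGF signalling is low were counted as a group of 16. In satellite glia all 16 had enough UMIs, of which 7 were called higher and 1 lower, beside 25.7% and 2.28% of all genes, with a median log2 ratio of 0.56 beside 0.19 over all genes. The highest were Txnip, an inhibitor of thioredoxin that is also induced by glucose (163 CPM in DPN and 37.0 CPM in control, ratio 4.39), Pdk4, which limits the use of glucose by mitochondria (73.2 CPM in DPN and 26.5 CPM in control, ratio 2.76), and the ubiquitin ligase gene Fbxo32 (9.48 CPM in DPN and 3.90 CPM in control, ratio 2.43). Eif4ebp1, which restrains translation, was called lower with 23.7 CPM in DPN and 41.4 CPM in control (0.573).

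The other gates had fewer of these genes with enough UMIs, and their counts are set beside the shares of all genes called higher in the same gate. They were 3 of 13 in myelinating Schwann cells (18.5% of all genes), 4 of 14 in endothelium (18.7%), 6 of 14 in smooth muscle (18.4%), 3 of 12 in fibroblasts (26.1%) and 2 of 8 in macrophages (18.6%). The fibroblast share was near that of all genes, while smooth muscle stood at least as far above the share of all genes as satellite glia did. In the same order, 0, 1, 0, 1 and 1 genes were called lower. Myelinating Schwann cells were led by Txnip (633 CPM in DPN and 262 CPM in control, ratio 2.41), Sesn3 (2.38) and the cell cycle inhibitor gene Cdkn1b (2.02). Endothelium was led by Sesn3 (1.96), Trib1 (1.84) and Pdk4 (1.60), with Eif4ebp1 called lower (0.638), and smooth muscle by Trib1 (1.92), Sesn3 (1.86) and Fbxo32 (1.74). In fibroblasts Cdkn1b (1.97), Trib1 (1.82) and Txnip (1.70) were called higher and Klf15 lower (0.612). In macrophages Cdkn1b (2.07) and Txnip (1.66) were called higher and Eif4ebp1 lower (0.609).

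Genes with a pattern most like that of each member were found by Pearson's r of log2(CPM + 1) over 12 points, the 6 gates in both libraries, among 10681 genes. The points share libraries and depth, so r is a description only. For Igf1 they were Ctsl (0.963), Glb1 (0.957) and Ctsh (0.933), all lysosomal enzymes, and for Igf2 Rtn4rl1 (0.983), Esam (0.983) and Tinagl1 (0.971). For Insr they were Jag2 (0.982), Adgrl4 (0.979) and Slco1a4 (0.978), and for Igf1r Ercc6 (0.973), Ehmt1 and Zfp609. For Irs2 they were Id4 (0.920), Vldlr and Cdh6. For Igfbp2 they were Scrg1 (0.984), Abhd4 (0.979) and Tnc (0.974), for Igfbp3 Bcl2l1 (0.929), Fes and Zfp707, and for Igfbp4 Nit1 (0.923), H2afv and Nfs1. For Igfbp5 they were Rcn3 (0.968), Klf15 (0.963) and Rab34 (0.955), and for Igfbp7 Rras (0.975), Nupl2 (0.970) and Ttc28 (0.964).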

How the data were processed

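Single-cell RNA-seq libraries of rat DRGs, 1 DPN and 1 control, were analysed from the filtered matrices deposited by the authors, which hold raw UMI counts per gene and barcode. The authors made them with Cell Ranger 3.1.0, whose aligner is STAR. No source used here gives a genome build. The study's methods mention down-sampling without saying whether it was applied. Columns of other samples left unused numbered 0.

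Cells with at least 1000 UMIs and under 20% of UMIs from genes named Mt- were kept (11013 in DPN and 9798 in control), gated on marker sums, and their counts summed per library and gate. Doublets were not called, and 2.06% of DPN and 1.43% of control satellite glia passed another gate. CPM had exact Poisson intervals and ratios exact conditional binomial intervals. No p-value was computed. The tools were Python 3.11.15, numpy 2.4.6, scipy 1.17.1 and pandas 2.3.3, tested on simulated data. The members, lists and gates were chosen with earlier results of these data known. All 10 members are reported, and of the other lists the 3 highest and 3 lowest ratios among called genes per gate, with Irs1 and Foxo3 named in addition after their values were seen. A result that this rule would name is not reported here. Alternatives changed the cell filters, gates, scaling, depth and count minimum.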

Additional observations from a re-analysis of the deposited data

Results flagged for a closer look

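For 3 members the ratio of DPN over control went in opposite directions in 2 gates, with intervals on either side of 1. With 1 library per condition the difference between gates was not tested. Irs2 had a ratio of 2.12 in fibroblasts and 0.795 in endothelium. Igfbp4 had a ratio of 1.08 in endothelium and 0.552 in myelinating Schwann cells, where the free RNA scale of satellite glia would give 23.9 of 47.6 CPM in DPN and 63.0 of 86.3 CPM in control, a part that was not tested. In myelinating Schwann cells of 3000 to 6000 UMIs the Igfbp4 ratio was 1.60 (0.808 to 3.34), so the lower direction was not seen at every depth. Igfbp5 had a ratio of 1.27 in myelinating Schwann cells and 0.764 in satellite glia.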

How the results depend on the processing

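No paired analysis was possible because DPN and control had 1 library each. Of the 15 called pairs of member and gate, 2 kept their call in all 13 settings (Igf1 in satellite glia and in fibroblasts) and 13 kept their side of 1 in every setting that gave a value. Calls were also counted anew over all pairs in each setting, so these counts include pairs not called in the main setting. Higher calls went from 5 to 3 with gate thresholds doubled and to 1 with cells thinned to 1000 UMIs. They went to 0 with 1 added to the mean per 10000 UMIs and to 9 with a minimum of 20 UMIs per gene. Each of the 5 main higher calls was lost after thinning, and the 1 counted there was of another pair. Lower calls went from 10 to 5 after thinning, 6 in cells of 3000 to 10000 UMIs and 3 with 1 added. Thinning leaves few UMIs, and adding 1 shrinks the ratios of rare transcripts by construction. Among the 15 called pairs the direction turned in 2 cases, both under 100 UMIs: Insr in satellite glia with under 10% mitochondrial UMIs (0.586), and Igfbp3 in fibroblasts after thinning (1.09). Scaling by the median ratio of all genes left the counts at 5 and 10 and moved the Igf1 ratio in satellite glia to 0.219. Igf1r in most gates, and Igf2 outside vessel cells, had too few UMIs for a call at this depth.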
